A study of Bos taurus with 10 samples.

Results

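ACTB, GAPDH and B2M are 3 genes that laboratories often use as references, the transcripts against which others are measured, and they were followed here through the skin of Brangus cattle, bred from Brahman and Angus cattle. The genes were taken by Ensembl identifier from a table of read counts: ENSBTAG00000026199 for ACTB, ENSBTAG00000014731 for GAPDH and ENSBTAG00000012330 for B2M. All 3 identifiers were present among the 7052 genes of the table. The table gives identifiers alone, and no table used here pairs them with symbols, so the 3 names are those under which the identifiers were chosen.

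The libraries came from skin biopsies kept in RNAlater, and the series set animals under heat stress against control animals. Of the 10 libraries, 5 carry titles with Ctrl and 5 carry titles with Strs. The disease state entry runs the other way: it places every Ctrl-titled library in the heat stress case group and every Strs-titled library in the control group. The groups are therefore named by their titles, fold changes divide the Strs-titled by the Ctrl-titled level, and their direction relative to heat stress is not settled. Breed, tissue and RNA source are the same in both groups, while the sources used here give no age, sex, form of heat exposure or length of it. The labels do not state that each library is a different animal, so the spread that the p-values rest on is between samples and may be technical.

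A reference gene is useful when its RNA level stays the same across the conditions compared, because any shift in the reference is passed on, inverted, to every gene measured against it. ACTB encodes beta-actin, a building block of the cytoskeleton in nearly every cell. GAPDH encodes a glycolytic enzyme that many cells make more of under low oxygen. B2M encodes beta-2-microglobulin, the light chain of MHC class I molecules on the surface of nucleated cells, and its transcription responds to interferons. None of these products is specific to a skin cell type.

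The 10 table totals, which are sums over the 7052 genes and not sequencing depths, did not overlap between the groups: 490752 to 659756 counts in the Ctrl-titled group, 2453542 to 8051190 in the Strs-titled group. On the CPM scale, which sets each table total to the same sum, 1 read counted for 1.52 to 2.04 CPM in Ctrl-titled libraries but for only 0.124 to 0.408 CPM in Strs-titled ones. The number after PA in the titles also separates the groups, 1 to 16 against 28 to 33, and what it stands for is not given. Whatever differed along with the table totals or the PA numbers cannot be told apart from the group. Markers of skin cell types could not be looked up without symbols, so the tissue label was not checked. In bulk tissue, fewer cells that make a transcript and less of it per cell cannot be told apart.

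All 3 genes were higher in Strs-titled libraries, with estimates that differed in size: ACTB by 1.98-fold, GAPDH by 3.52-fold and B2M by 6.12-fold. None of the 3 held steady between the groups relative to the rest of the table. All levels and fold changes here are relative to the other genes counted. Whether the amount of each RNA per cell or per tissue changed was not tested. Of the 3 genes, 3 were called higher at a Benjamini-Hochberg adjusted p under 0.05 in the edgeR quasi-likelihood test. For comparison, 67.8% of the 7047 genes tested were called, 35.6% higher and 32.2% lower. A call by itself is therefore common here, and the sizes say more than the count.

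ACTB had 786 to 1160 counts in the Ctrl-titled group and 8043 to 30614 counts in the Strs-titled group. On CPM scaled by TMM factors, the scale of all levels below, the Ctrl-titled replicates 1 to 5 stood at 2126, 1515, 1727, 1533 and 1759 CPM. The Strs-titled replicates 1 to 5 stood at 3110.2, 3411, 3911, 3642 and 3081 CPM. The groups did not overlap, and the lowest Strs-titled library was 1.45 times the highest Ctrl-titled library. Group means were 1732 CPM ± 246 (SD, n = 5) and 3431 CPM ± 354 (SD, n = 5). The log2 fold change came to 0.99 with an SE of 0.19 (edgeR adjusted p = 0.00028), and its 95% interval as a fold ran from 1.503 to 2.61. Against a change of 1.5-fold rather than none ACTB was still called (edgeR glmTreat adjusted p = 0.014), as 26.7% of the genes tested were in that direction.

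GAPDH had 144 to 337 counts in the Ctrl-titled group and 4196 to 14340 counts in the Strs-titled group. Its scaled levels were 414, 278, 311, 516 and 511 CPM in Ctrl-titled replicates 1 to 5. In Strs-titled replicates 1 to 5 they were 1013, 2006, 1304, 1215 and 1607 CPM. Replicates 4 and 5 were the high ones of the Ctrl-titled group. Strs-titled replicate 2 was the highest of all 10 libraries, and the groups did not overlap. The lowest Strs-titled library was 1.96 times the highest Ctrl-titled one. Means were 406 CPM ± 110.5 (SD, n = 5) and 1429 CPM ± 387 (SD, n = 5), a log2 fold change of 1.81 (SE 0.24, edgeR adjusted p = 1.2e-05) with a 95% interval from 2.45-fold to 5.05-fold.

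B2M was the least counted and the most changed of the 3. It had 49 to 102 counts in the Ctrl-titled group and 2644 to 7095 counts in the Strs-titled group. Ctrl-titled replicates 1 to 5 held 140.0, 139, 126, 84.9 and 155 CPM. Strs-titled replicates 1 to 5 held 728, 569, 773, 863 and 1013 CPM. As a ratio, the gap between the groups was wider than for the other two genes, with the lowest Strs-titled library at 3.68 times the highest Ctrl-titled library. Means were 129 CPM ± 26.6 (SD, n = 5) and 789 CPM ± 164 (SD, n = 5), a log2 fold change of 2.61 (SE 0.22, edgeR adjusted p = 1.4e-07) with a 95% interval from 4.45-fold to 8.43-fold.

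**Figure D1:**
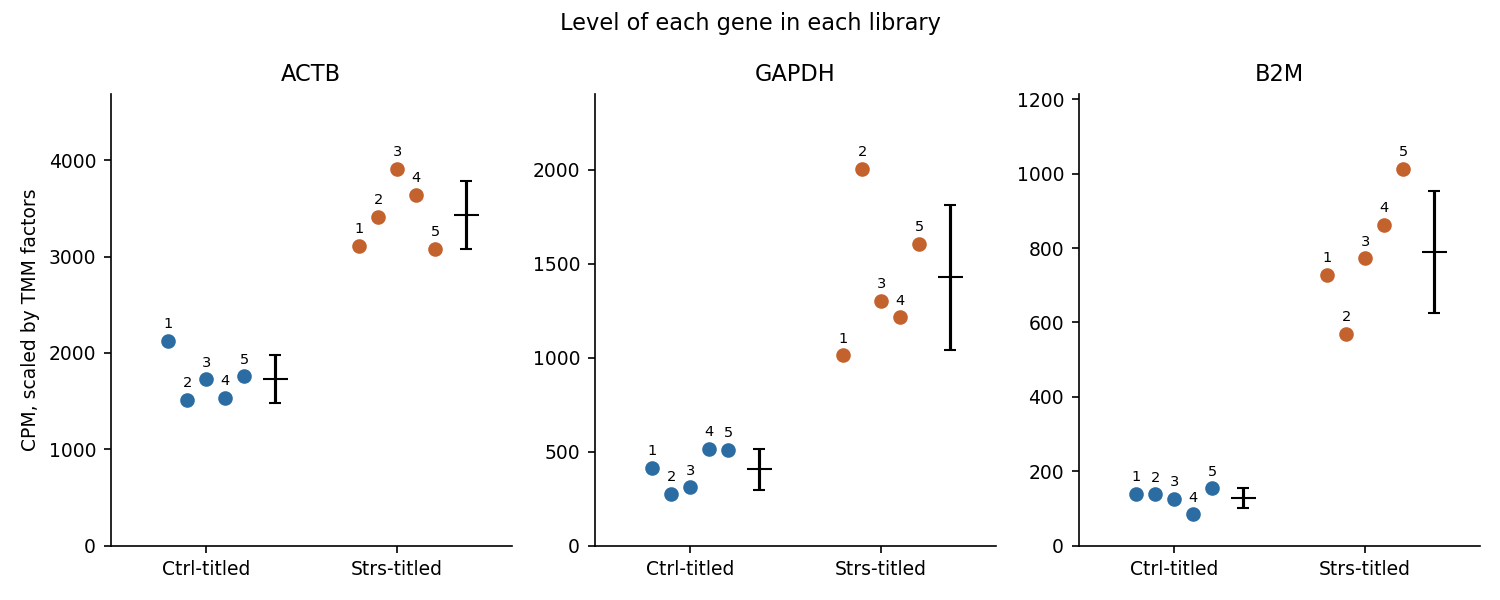
Level of ACTB, GAPDH and B2M in CPM scaled by TMM factors (vertical axes from 0) in each of 5 Ctrl-titled and 5 Strs-titled libraries, numbered by replicate, with the group mean and SD beside the points. In each panel every Strs-titled library lies above every Ctrl-titled library, and the ratio of the lowest Strs-titled to the highest Ctrl-titled level is 1.45 for ACTB, 1.96 for GAPDH and 3.68 for B2M.

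Groups that do not overlap in this direction were found for 27.5% of the genes tested, so the gap as such was not unusual in this table. The sizes of the changes can be placed among those of all genes. A larger log2 fold change than that of ACTB was estimated for 1976 of 7047 genes, than that of GAPDH for 887 (12.6%) and than that of B2M for 382 (5.42%). Counted without regard to direction, 3266 genes (46.3%) had a smaller change than ACTB, 5116 (72.6%) a smaller change than GAPDH and 6033 (85.6%) a smaller change than B2M. As a gene chosen for constancy between these groups, ACTB thus stood near the middle of the table, and GAPDH and B2M stood toward its changing end. Over all genes tested, the median log2 fold change was 0.11 with these scaling factors and 0.27 with upper quartile factors. The log2 fold changes moved along with it, to 1.15 for ACTB, 1.97 for GAPDH and 2.77 for B2M with upper quartile factors.

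**Figure D2:**
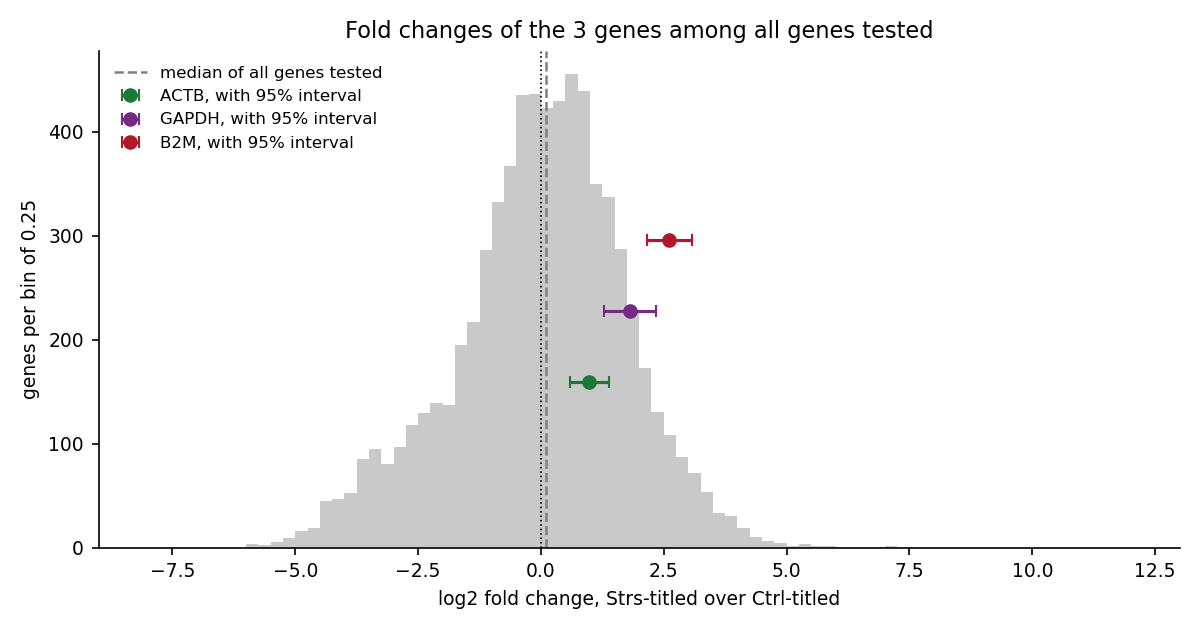
Distribution of the log2 fold change, Strs-titled over Ctrl-titled, over the 7047 genes tested (bars, genes per bin of 0.25), with the median of all genes dashed, no change dotted, and ACTB, GAPDH and B2M as points with 95% intervals at arbitrary heights. The 3 points lie to the right of the median of 0.11, in the order ACTB, GAPDH, B2M.

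The place of each gene in the order of read counts within its own library, which needs no scaling factor, moved the same way. The order is of reads, not corrected for transcript length. Among 7052 genes, ACTB ranked 35 to 54 in the Ctrl-titled group and 19 to 34 in the Strs-titled group. GAPDH ranked 191 to 449 and 86 to 141. B2M ranked 1184 to 2262 in the Ctrl-titled group and 143 to 233 in the Strs-titled group, so it moved from among the moderately counted genes to among the highly counted ones. The ranges did not overlap for any of the 3 genes.

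Within a group the picture was different, and ACTB was steady. The SD of log2 CPM around the group means was 0.17 for ACTB, smaller than for all but 116 (1.70%) of the 6825 genes tested that had no zero count. For B2M it was 0.32, with 24.7% of those genes steadier, and for GAPDH it was 0.40, with 39.9% steadier, against a median of 0.45. Within the Ctrl-titled group alone 8.29% of the genes were steadier than ACTB, and within the Strs-titled group alone 6.65%. These places were not matched for read count. ACTB was among the most counted genes, and less counted genes carry more counting error in their SD. Over all 10 libraries together, the SD of log2 CPM was 0.55 for ACTB, 1.03 for GAPDH and 1.41 for B2M, beside a median of 0.76. On that measure 28.7%, 68.3% and 82.9% of the genes were steadier. The difference between the groups made up 91.0% of the sum of squares of ACTB over the 10 libraries, 86.9% of that of GAPDH and 95.4% of that of B2M.

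Separate samples are bound to vary by more than counting error, and the values of both are given for scale. In Ctrl-titled libraries the coefficient of variation of the scaled level was 14.2% for ACTB, 27.2% for GAPDH and 20.7% for B2M. The number of reads alone would give 3.29%, 6.96% and 12.2%. In Strs-titled libraries the coefficients were 10.3%, 27.1% and 20.8%, beside 0.715%, 1.11% and 1.47% from the number of reads. The least counted value, B2M in Ctrl-titled replicate 4, was 0.00839% of the table total with an exact Clopper-Pearson 95% interval of 0.00621% to 0.0111%. The lowest Strs-titled share of B2M was 0.0570% (0.0553% to 0.0588%), in replicate 2. These intervals cover counting error only.

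The ratio of 2 reference genes within a library does not depend on how libraries are scaled, and 3 such ratios were compared between the groups with two-sided exact permutation tests over all divisions of the 10 libraries into 5 and 5. B2M against ACTB gave the sharpest difference. Per 100 counts of ACTB, Ctrl-titled replicates 1 to 5 had 6.59, 9.16, 7.27, 5.54 and 8.79 counts of B2M. Strs-titled replicates 1 to 5 had 23.4, 16.7, 19.8, 23.7 and 32.9. The groups did not overlap. The ratio was 3.09-fold higher in the Strs-titled group, with a 95% interval of 2.21 to 4.399 from the same permutations (exact permutation p = 0.00794, which is the lowest possible with 5 against 5, and 0.0238 after Benjamini-Hochberg adjustment over the 3 ratios). ACTB and B2M therefore did not change in step.

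GAPDH against ACTB differed less clearly. Ctrl-titled replicates 1 to 5 had 19.5, 18.3, 18.0, 33.7 and 29.1 counts of GAPDH per 100 counts of ACTB. In Strs-titled replicates 1 to 5 there were 32.6, 58.8, 33.3, 33.4 and 52.2. Ctrl-titled replicate 4 lay above Strs-titled replicates 1, 3 and 4, so the groups overlapped, and 2 of the 5 Strs-titled libraries lay above every Ctrl-titled one. The ratio was 1.78-fold higher in the Strs-titled group, with a 95% interval of 1.07 to 2.93 (exact permutation p = 0.0317, adjusted 0.0476). The adjusted exact permutation p was 0.0714 without Ctrl-titled replicate 3 or without Strs-titled replicate 2, and 0.107 without Strs-titled replicate 5. Before adjustment, the exact permutation p was 0.0714 without either of these Strs-titled replicates, so the call rested on each of them. Without Ctrl-titled replicate 3 it was 0.0476 before adjustment, the same as without Ctrl-titled replicate 2, where the adjusted value was 0.0476. There the call was lost only through the adjustment over the 3 ratios.

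B2M against GAPDH was not called. Ctrl-titled replicates 1 to 5 had 33.9, 50, 40.4, 16.4 and 30.3 counts of B2M per 100 counts of GAPDH. In the Strs-titled group, replicates 1, 3, 4 and 5 had 71.9, 59.3, 71.0 and 63.0, above every Ctrl-titled library. Replicate 2, at 28.4, lay inside the Ctrl-titled range. The ratio was 1.74-fold higher in the Strs-titled group, with a 95% interval from 0.941 to 3.03, which includes no change (exact permutation p = 0.0714, adjusted 0.0714). Without Strs-titled replicate 2 the adjusted exact permutation p was 0.0238, and without Ctrl-titled replicate 2 it was 0.0476. Leaving out any other library gave an adjusted exact permutation p of 0.0794 to 0.135. These values do not show that GAPDH and B2M changed alike.

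**Figure D3:**
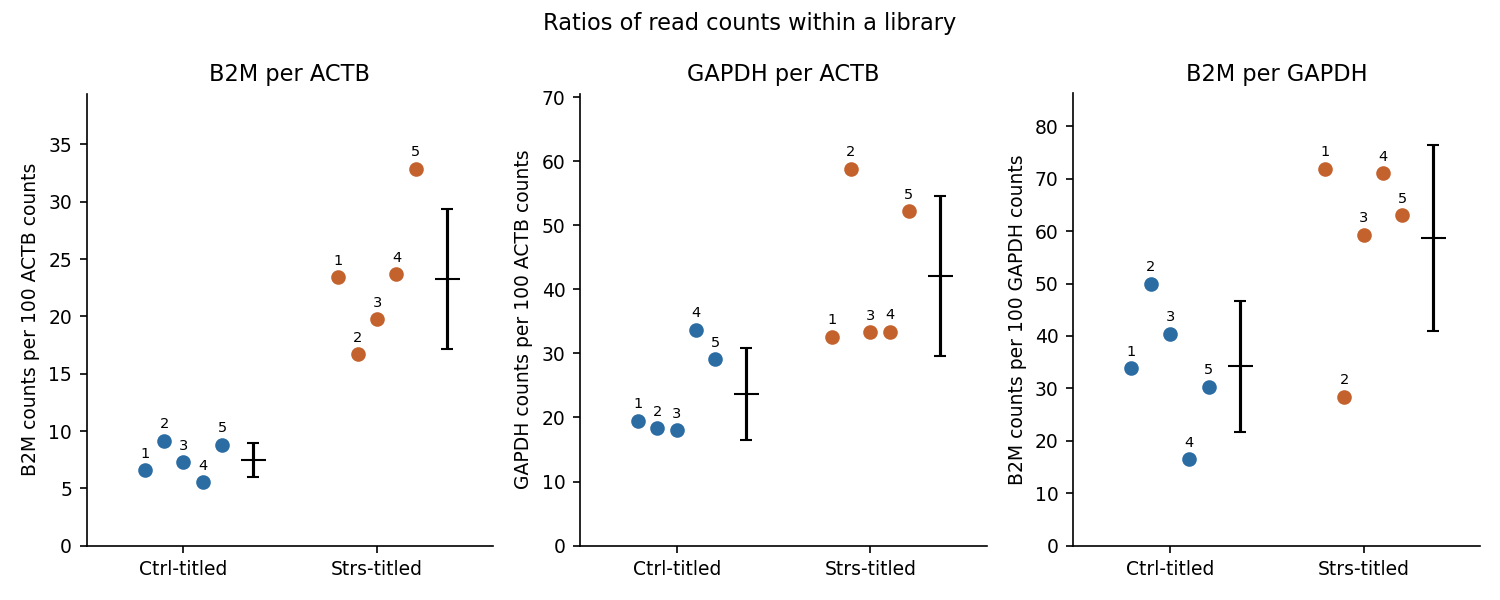
Read counts of 1 gene per 100 read counts of another in the same library (vertical axes from 0), for B2M per ACTB, GAPDH per ACTB and B2M per GAPDH, with 5 libraries per group numbered by replicate and the group mean and SD beside the points. B2M per ACTB does not overlap between the groups, while the groups overlap in the second panel, where Ctrl-titled replicate 4 lies above Strs-titled replicates 1, 3 and 4, and in the third, where Strs-titled replicate 2 lies below Ctrl-titled replicates 1, 2, 3 and 5.

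A common score of reference genes, the geNorm M value, is the mean SD of the log2 ratios of a gene to the other candidates, and lower is steadier. Over the 10 libraries M was 0.64 for GAPDH, 0.75 for ACTB and 0.80 for B2M, which puts GAPDH first because its change lay between those of the other two. Within the Ctrl-titled group M was 0.36 for ACTB, 0.45 for B2M and 0.51 for GAPDH, and within the Strs-titled group it was 0.39, 0.46 and 0.48. The order of the genes thus turned over with the set of libraries: GAPDH had the lowest M across the groups and the highest within each. With 3 candidates that were all higher relative to the rest of the table, M measures how far they moved together and not whether they were constant.

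To show what these genes would do as references, each in turn replaced the library size in the same edgeR fit, and the number of genes called was counted. With TMM factors, 4775 genes were called, 2506 higher and 2269 lower. Scaled to ACTB, 939 genes were called higher and 3850 lower, and the genes tested had a median log2 fold change of -0.89. Scaled to GAPDH, the numbers were 329 and 4901, with a median of -1.70. Scaled to B2M, they were 99 and 6071, with a median of -2.50. The geometric mean of the 3 genes gave 395 higher and 5195 lower, with a median of -1.70, close to GAPDH alone.

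These shifts follow from the fold changes of the 3 genes given above, since scaling to a gene moves all other genes by about its own fold, and they are no further evidence of a change. Among genes called both with TMM factors and after scaling to a reference gene, the direction was opposite for 20 of 3228 with ACTB, 515 of 3113 with GAPDH and 1564 of 3932 with B2M. Measured against the other 2 genes, B2M stayed higher and ACTB turned lower, while the direction of GAPDH depended on the reference. Against B2M, ACTB had a log2 fold change of -1.62 (edgeR adjusted p = 4.6e-05) and GAPDH of -0.81 (edgeR adjusted p = 0.033). Against ACTB, GAPDH had a log2 fold change of 0.83 (edgeR adjusted p = 0.0096) and B2M of 1.64 (edgeR adjusted p = 1e-05). In the fit scaled to GAPDH, B2M had a log2 fold change of 0.79 (edgeR adjusted p = 0.033), although the exact permutation test of the same ratio did not pass. That fit treats the reference counts as known without error, which the ratio test does not.

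**Figure D4:**
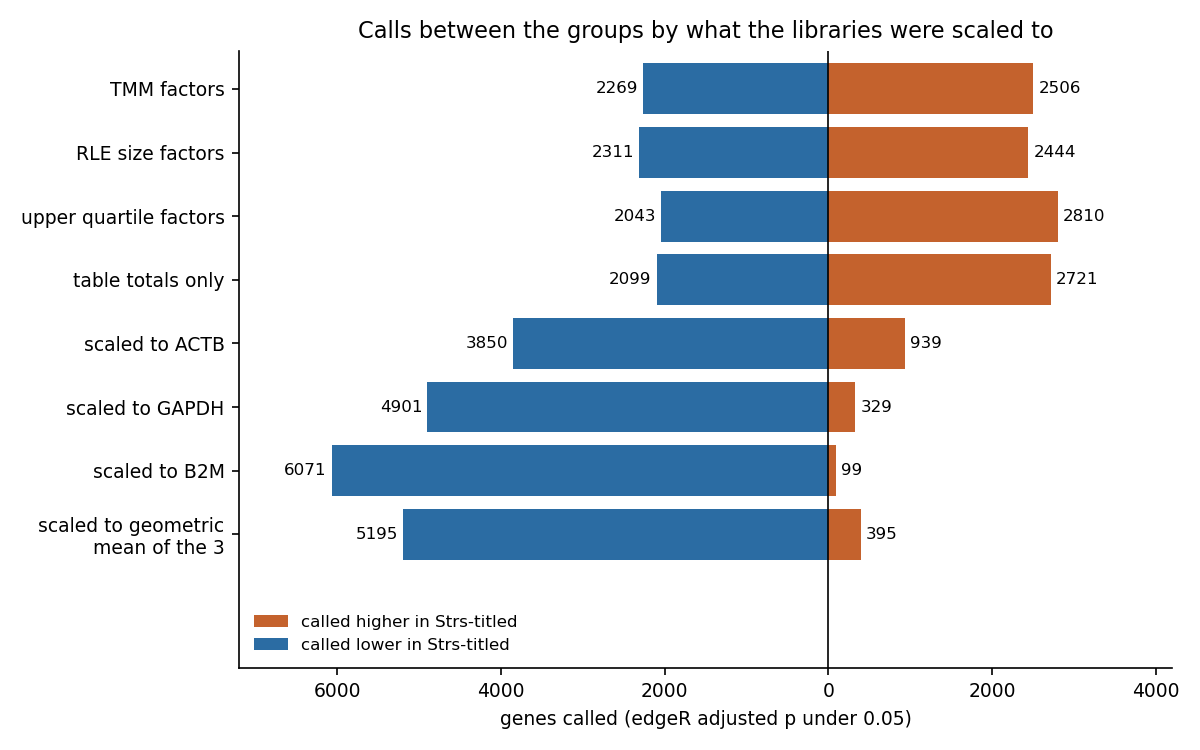
Genes called higher (right) and lower (left) in Strs-titled libraries at an edgeR adjusted p under 0.05, by what the libraries were scaled to. The 4 scalings that use the whole table call between 2444 and 2810 genes higher, and the 4 that use ACTB, GAPDH, B2M or their geometric mean call between 99 and 939 higher.

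Likeness of pattern was measured by Pearson's r of log2 CPM over the 10 libraries, which share the difference between the groups, so any gene that separates the groups cleanly scores high. ACTB had r = 0.95 with B2M and 0.90 with GAPDH, and GAPDH had r = 0.89 with B2M. In the order of likeness to ACTB, B2M stood only at place 205 and GAPDH at place 699. The gene most like B2M was ENSBTAG00000010321 (r = 0.99), whose Ctrl-titled mean was 16.9 CPM ± 3.32 (SD, n = 5) and whose Strs-titled mean was 67.6 CPM ± 7.51 (SD, n = 5). The gene most like ACTB was ENSBTAG00000038759 (r = 0.99), at 82.7 CPM ± 53.8 (SD, n = 5) and 1112 CPM ± 287 (SD, n = 5), a far larger change than that of ACTB, since r does not see size. For GAPDH the highest r was 0.99 as well, with a gene of log2 fold change 1.80. These matches had few reads in Ctrl-titled libraries: 7 to 12 for that of B2M, 22 to 82 for that of ACTB and 9 to 19 for that of GAPDH. These values describe the 10 libraries and were not tested.

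Some reads of these genes may be shared with copies of them: beta-actin and gamma-actin transcripts have nearly the same coding sequence, and GAPDH and ACTB have processed pseudogenes in mammalian genomes. The sources used here do not say how reads that match several places were counted, and the part of such reads in the values of ACTB and GAPDH was not tested.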

How the data were processed

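The authors deposited whole-number read counts per Ensembl gene identifier for 10 libraries, not normalized, from non-stranded paired-end sequencing, per the labels' protocols. Per the submitters' processing notes, the tools included STAR, featureCounts, fastp 0.12.5, FastQC and DESeq2 1.26.0, and the build was ARS-UCD1.2. For the annotation release and the counting settings: not given in the sources used here. How the genes in the table were chosen is not described, beyond a Spanish tag on the counts: without zeros, without RP. What RP stands for is not given. Any gene outside the table enters neither totals nor CPM.

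From these counts, filterByExpr in edgeR 4.0.16 (R 4.3.3) removed 5 of 7052 genes. TMM factors (0.917 to 1.00 in Ctrl-titled, 1.00 to 1.08 in Strs-titled libraries), a robust quasi-likelihood fit over all 10 libraries with no covariate, and Benjamini-Hochberg adjustment over 7047 genes followed, with a threshold of 0.05. The SE is the log2 fold change over the square root of F, and intervals use the t distribution of that fit. Count ratios used no pseudocount. Their intervals hold the shifts that the two-sided exact permutation test does not reject. Log2 CPM for likeness used a prior count of 2. Named genes are the 3 genes and, for each, the gene with the highest r, with at most 2 identifiers printed because 0 identifiers could be paired with a symbol. For that reason the lists of other reference, glycolytic, actin and MHC class I genes and the cell type markers were not used. The genes, lists and tests were chosen with earlier results of these data known. The fit was tested on simulated data in which few genes were changed, equally many up and down. That setting could not show how the fit or its scaling fares where 67.8% of the genes are called, as here. No 2 libraries of a group were copies (20 pairs compared, chi-square per degree of freedom at least 4.00). Alternatives were scaling by DESeq2 size factors, upper quartile factors, table totals or the genes themselves, no filter, DESeq2 1.42.0, limma voom (limma 3.58.1), a replicate block, a 1.5-fold test, scaling without genes above 1% of a library, and leaving out each library.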

Additional observations from a re-analysis of the deposited data

Results flagged for a closer look

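By a gap test, the highest or lowest library was set apart from the other 4 in 2 of the 14 groups of values checked (levels and ratios of the 3 genes and table totals). Chance alone gives such a gap in about 1 in 20 groups, and the ratios share their genes. Strs-titled replicate 2 had 28.4 B2M counts per 100 GAPDH counts, and the next value of that group was 59.3. That gap was 0.7104 of the range of its group, barely past the critical value of 0.71. The same library held the highest GAPDH level of its group, 2006 CPM, and the lowest B2M level, 569 CPM. The table total of Strs-titled replicate 5 was 2453542 counts, and the next value of that group was 6701794, a gap of 0.759 of the range. Without that library the log2 fold changes were 1.06 for ACTB, 1.81 for GAPDH and 2.54 for B2M.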

How the results depend on the processing

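Over 19 alternatives that kept a scaling from the whole table, ACTB, GAPDH and B2M stayed higher in Strs-titled libraries and past the threshold. Their log2 fold changes were 0.94 to 1.15, 1.65 to 1.97 and 2.53 to 2.77, with adjusted p (edgeR, DESeq2 or limma) up to 0.014, 0.0002 and 5.8e-06. The 0.014 of ACTB came from the 1.5-fold test (edgeR glmTreat). Against no change its highest adjusted p was 0.0044 (edgeR with the replicate block). Scaled to the genes themselves, ACTB reversed to -0.83 against GAPDH, -1.62 against B2M and -0.82 against the geometric mean, and GAPDH reversed to -0.81 against B2M and stood at 0.0047 (edgeR adjusted p = 0.98) against the geometric mean, by the construction of these scalings. They also moved the calls from 2506 higher and 2269 lower to 939 and 3850 (ACTB), 329 and 4901 (GAPDH), 99 and 6071 (B2M) and 395 and 5195 (geometric mean). Every other alternative kept the 4775 calls, and the calls in each direction, within 1.5 times. Leaving out 1 library gave log2 ratios of 1.49 to 1.74 for B2M per ACTB, 0.70 to 0.97 for GAPDH per ACTB and 0.56 to 1.04 for B2M per GAPDH. The replicate numbers did not pair the libraries: same-numbered libraries correlated at -0.081 to 0.026, and for 1 of 5 its own number gave the highest correlation. The fit with the replicate block called 4568 genes, and its log2 fold changes were 0.99, 1.81 and 2.61. With the replicate block the ratios kept their log2 differences of 1.63, 0.80 and 0.83 (B2M per ACTB, B2M per GAPDH, GAPDH per ACTB), with an adjusted exact permutation p of 0.188 for each; 5 pairs allow no p below 0.0625. The SDs over the 10 libraries moved by less than the spread within groups in all alternatives. The upper quartile scaling of the SDs was added after seeing the data. At 49 to 102 reads of B2M, depth limits that gene most in Ctrl-titled libraries.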

Other observations

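ACTB, GAPDH and B2M together took 0.218% ± 0.0297 (SD, n = 5) of the table total of the Ctrl-titled libraries and 0.588% ± 0.0401 (SD, n = 5) of that of the Strs-titled libraries, with ranges of 0.183% to 0.253% and 0.522% to 0.627%. In each group the library with the highest GAPDH level was also the one with the lowest B2M level: Ctrl-titled replicate 4 (516 and 84.9 CPM) and Strs-titled replicate 2 (2006 and 569 CPM). In the Ctrl-titled group this was a near tie that went both ways. Replicate 5 stood at 511 CPM of GAPDH and had the highest B2M level of that group, 155 CPM. On CPM of table totals, replicate 5 was the higher in GAPDH, at 510.8 CPM against 510.5 CPM for replicate 4. The pattern of high GAPDH with low B2M was noticed in the values and was not tested.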
